A study of Mus musculus with 11 samples.

Results

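The 5-hydroxymethylcytosine (5hmC) signal of 7 genes for endoderm transcription factors, Foxa1, Foxa2, Foxa3, Gata4, Gata6, Sox17 and Hnf4a, was followed while mouse embryonic stem (ES) cells became epiblast-like cells (EpiLC). The genes were chosen by name, with earlier results of these data known. Their data were the 2 kb tiles that overlap each annotated gene span, or the 2 kb on either side of it, in build GRCm38. That gave 120 of the 1362779 tiles and 7 of the 20717 genes tested. The libraries were made by HMCP-seq, in which a kit captures DNA fragments that carry 5hmC before sequencing. DNMT_WT cells, the wild-type parent of a line lacking Dnmt1, Dnmt3a and Dnmt3b, were sampled as EpiLC at day 2 (n = 3). TET_WT cells, the wild-type parent of a line lacking Tet1, Tet2 and Tet3, were sampled as ES cells in 2i/Lif at day 0 (n = 3) and as EpiLC at day 1 (n = 2) and day 2 (n = 3). Both are single lines and none of the libraries used here carries a knockout, so a difference between the lines cannot be told apart from any other difference between their cultures. The labels give no age, and they do not say whether replicates were separate cultures, so the p-values cover no more than the spread among the libraries at hand. The signal is not a level of RNA, and the labelled cell types were not checked against marker expression here.

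5hmC is made from 5-methylcytosine by the TET enzymes, lies in mammals almost wholly at CG dinucleotides, and is known to mark active or poised enhancers and gene bodies. The FOXA proteins are forkhead pioneer factors that open chromatin in the early endoderm and later in liver, pancreas and lung. GATA4, GATA6 and SOX17 act early in the primitive and definitive endoderm, and HNF4A, a nuclear receptor, acts in the visceral endoderm and the liver. Epiblast-like cells model the post-implantation epiblast, which has not yet formed the definitive endoderm.

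Promoter windows of 300 bases, from 250 before an annotated start to 50 after it, were available from RefSeq (GRCm38.p6) for 4 of the 7 genes, with 7 entries. They are shown because the tiles that hold these starts behaved differently from each other. Capitals mark the dinucleotide CG, which reads the same on both strands, and each line runs 5′ to 3′ on the strand of the gene. The 2 windows of Hnf4a, on the plus strand, lie at chr2:163506607-163506906 for the upstream start and at chr2:163546905-163547204 for the downstream start.
Hnf4a upstream start: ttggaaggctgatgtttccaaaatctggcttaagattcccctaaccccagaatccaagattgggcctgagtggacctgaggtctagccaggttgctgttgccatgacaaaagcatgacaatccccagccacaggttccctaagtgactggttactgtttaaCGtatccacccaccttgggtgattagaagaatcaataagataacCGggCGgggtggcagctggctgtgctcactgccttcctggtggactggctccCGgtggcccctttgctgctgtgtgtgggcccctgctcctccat
Hnf4a downstream start: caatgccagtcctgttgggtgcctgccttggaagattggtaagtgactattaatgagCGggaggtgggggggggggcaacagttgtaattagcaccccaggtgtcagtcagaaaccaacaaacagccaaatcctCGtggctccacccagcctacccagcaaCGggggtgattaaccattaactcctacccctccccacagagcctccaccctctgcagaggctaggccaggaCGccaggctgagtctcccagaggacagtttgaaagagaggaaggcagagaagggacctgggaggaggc
The windows of Foxa1 at chr12:57546062-57546361, of the Foxa2 start farthest upstream at chr2:148046920-148047219 and of Foxa3 at chr7:19023490-19023789 are on the minus strand.
Foxa1: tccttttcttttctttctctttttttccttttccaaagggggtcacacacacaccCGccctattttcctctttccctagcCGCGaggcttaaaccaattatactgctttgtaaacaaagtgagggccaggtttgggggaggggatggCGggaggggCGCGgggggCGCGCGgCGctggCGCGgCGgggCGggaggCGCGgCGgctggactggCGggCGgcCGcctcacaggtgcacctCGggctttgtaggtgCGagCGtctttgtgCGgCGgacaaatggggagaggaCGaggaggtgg
Foxa2: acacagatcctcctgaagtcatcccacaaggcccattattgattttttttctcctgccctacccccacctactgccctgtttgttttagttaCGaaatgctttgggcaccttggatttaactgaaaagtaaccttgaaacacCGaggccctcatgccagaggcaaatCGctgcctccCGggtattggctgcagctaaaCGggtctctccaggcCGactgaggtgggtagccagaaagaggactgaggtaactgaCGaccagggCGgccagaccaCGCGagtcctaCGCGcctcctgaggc
Foxa3: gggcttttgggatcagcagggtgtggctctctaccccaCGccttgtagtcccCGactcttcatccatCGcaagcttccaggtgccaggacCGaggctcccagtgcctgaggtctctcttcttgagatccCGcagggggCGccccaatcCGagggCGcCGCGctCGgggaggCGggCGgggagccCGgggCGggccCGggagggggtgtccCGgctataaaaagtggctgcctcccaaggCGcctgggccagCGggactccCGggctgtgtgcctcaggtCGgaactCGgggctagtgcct
Both Hnf4a windows held 4 CG dinucleotides, and 31% of 32609 annotated promoter windows held fewer. The Foxa1 window held 26 and the Foxa3 window 22, more than 83% and 76.7% of all windows. The 3 Foxa2 windows held 12, 23 and 13. The median over all windows was 7, and 94.7% held at least 1.

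Reads summed over tiles, as recovered from the deposited values, ran from 7342015 in TET_WT day 1 replicate 2 to 51604034 in TET_WT day 0 replicate 1. These sums exceed the library size implied by RPKM 2.32 times in every library, for a reason not known. TET_WT day 0 replicate 2 stood apart from its group. Over genes it correlated at r = 0.935 with each of the other 2, which correlated at r = 0.957 with each other. Results against day 0 are therefore also given without it. A gene value is the mean log2 RPKM (RPKM here counts the reads of a tile per kilobase, relative to the size of the library) over the tiles of the gene. It does not grow with gene length, but a gene with uneven tiles reads lower than its reads per tile would give. One unit on this scale is a doubling. A tile without reads is held at 0.9 reads in the deposited values, so it reads higher in a library with fewer reads. This raises gene values that include such tiles in the shallower libraries, TET_WT day 1 replicate 2 most of all. RPKM is relative to the library, so a change in total 5hmC is not visible, and fewer modified cells cannot be told apart from less 5hmC per cell. A gene or tile is said to have risen or fallen where limma gave an adjusted p under 0.05 over all genes or all tiles of a comparison.

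In DNMT_WT cells at day 2 the forkhead genes held the highest gene values of the 7. Foxa1 averaged 1.73 ± 0.11 log2 RPKM (SD, n = 3 here and for the other DNMT_WT values), Foxa2 1.45 ± 0.22 and Foxa3 1.38 ± 0.15. The ranges of Foxa1 and Foxa2 overlapped, as did those of Foxa2 and Foxa3. Gata4 followed at 0.99 ± 0.07 and Hnf4a at 0.80 ± 0.10, and Gata6 at -0.24 ± 0.17 and Sox17 at -0.28 ± 0.30 came last with overlapping ranges. Reads per tile gave another order. Gata4 held 4039, 1641 and 2702 reads over 39 tiles in replicates 1, 2 and 3, and Foxa2 held 513, 178 and 404 over 5. Per tile, Gata4 was above Foxa2 in replicates 1 and 2 and below it in replicate 3. Sox17 held 459, 152 and 284 reads over 6 tiles and Gata6 845, 394 and 632 over 19, so Sox17 was higher per tile in each.

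TET_WT cells had another order. In ES cells at day 0, Hnf4a at 0.79 ± 0.26 log2 RPKM and Gata4 at 0.75 ± 0.01 led with overlapping ranges (SD, n = 3), between the 79.7th and the 87.7th percentile of all genes. Foxa1 at 0.33 ± 0.07 overlapped Foxa3 at 0.18 ± 0.25, and Gata6 at -0.45 ± 0.05 stood below both. Sox17 at -0.76 ± 0.38 and Foxa2 at -0.85 ± 0.46 came last and overlapped. At day 1 the 2 libraries put Gata4 (0.90 ± 0.13) above Hnf4a (0.72 ± 0.07), Foxa3 (0.40 ± 0.06) and Foxa1 (0.29 ± 0.06) without overlap between neighbours (SD, n = 2). Foxa2 at -0.36 ± 0.23, Gata6 at -0.52 ± 0.51 and Sox17 at -1.01 ± 0.44 overlapped in turn. At day 2 Gata4 (1.12 ± 0.10) and Foxa3 (1.01 ± 0.06) led and overlapped (SD, n = 3). Hnf4a (0.92 ± 0.05) nearly met Foxa3, with a highest library of 0.956 against a lowest of 0.958, and overlapped Foxa1 (0.67 ± 0.17). Foxa2 (0.14 ± 0.23) overlapped neither neighbour, and Sox17 (-0.56 ± 0.56) and Gata6 (-0.57 ± 0.03) overlapped at the end.

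**Figure D1:**
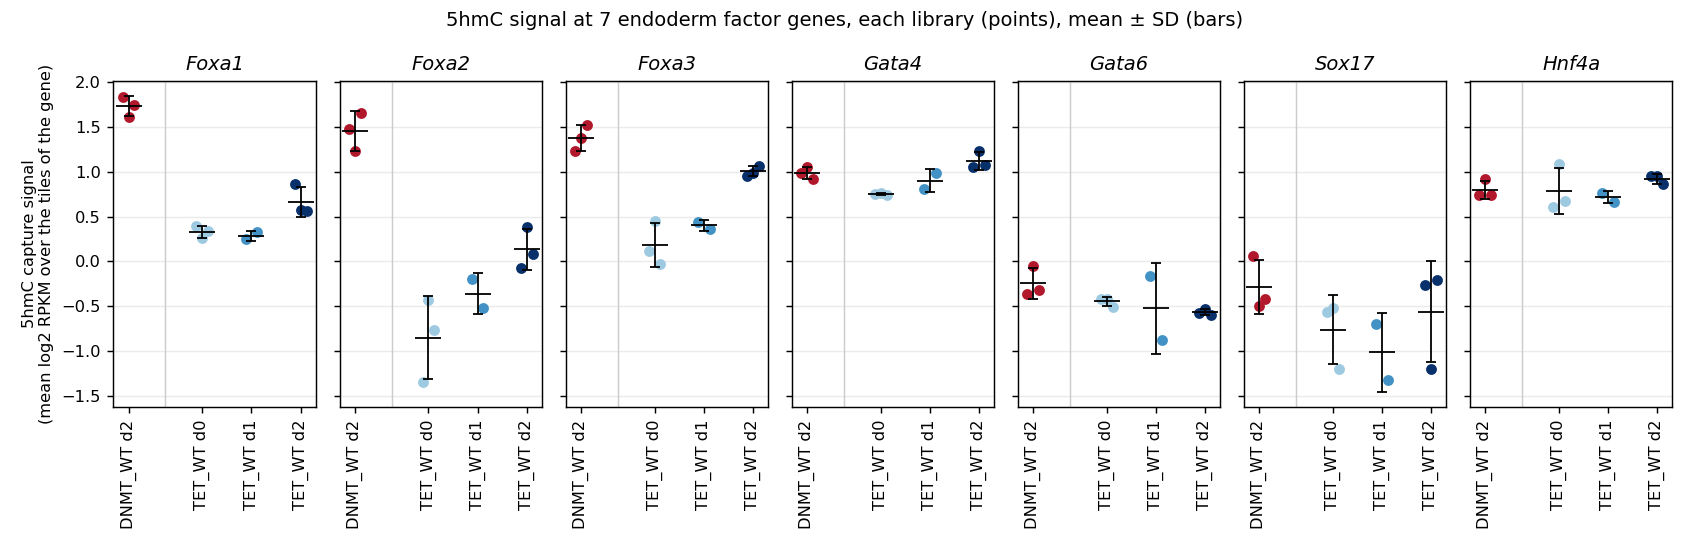
5hmC capture signal of the 7 genes (vertical axis, mean log2 RPKM over the tiles of the gene) in each library, with DNMT_WT day 2 on the left and TET_WT days 0, 1 and 2 on the right; points are libraries and bars are the group mean and SD. Foxa1 and Foxa2 of DNMT_WT, at 1.73 and 1.45, lie well above their TET_WT libraries, while Gata4 and Hnf4a of both lines lie close together.

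By day 2 the signal over Foxa1, Foxa2, Foxa3 and Gata4 rose in TET_WT cells relative to day 0, and none of the 7 genes fell. Foxa2 and Foxa3 had the largest of these differences, at 0.99 and 0.82 log2 units. Thus 4 of the 7 genes were called higher, where 17.8% of all genes were called, 15.3% higher and 2.51% lower, and the median difference over all genes was 0.09. The day 2 and day 0 libraries did not overlap at 5 of the 7 genes, as was so at 31.6% of all genes. The Foxa1 call was lost on leaving out any 1 of the 11 libraries. Without TET_WT day 0 replicate 2 the called genes also numbered 4, with Hnf4a in place of Foxa1, but 31.6% of all genes were then called, 22% higher and 9.56% lower. Over single tiles, 20 of the 118 tested rose and 2 fell, where 8.01% of all tiles were called, 5.33% higher and 2.68% lower. Without that library 23 rose and 2 fell, and all 22 tiles called with it were among them, where 7.35% of all tiles were called, 5.17% higher and 2.18% lower. When the spread of a tile was not tied to its level (no variance trend), 1 member tile was called. Tile calls therefore rest on that model.

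Foxa3, which with its relatives binds enhancers of liver genes, read 0.12, 0.45 and -0.02 log2 RPKM in TET_WT day 0 replicates 1, 2 and 3. It read 0.44 and 0.36 in day 1 replicates 2 and 3, and 0.96, 0.99 and 1.07 in day 2 replicates 1, 2 and 3. Every day 2 library lay above every earlier one. The difference between day 2 and day 0 was 0.82 (SE 0.12, adjusted p = 0.000658), or 0.96 (adjusted p = 0.000112) without day 0 replicate 2, and Foxa3 was called in all 21 alternative settings. It was 0.45 (adjusted p = 0.0017) over the span plus 20 kb either side. Of its 8 tiles, 5 rose and none fell.

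The Foxa3 tile with the smallest p, chr7:19012001-19014000 across the left end of the span, read 0.83, 0.60 and 0.63 at day 0, 1.15 and 1.34 at day 1, and 2.00, 2.25 and 2.17 at day 2. The groups formed separate steps in the order of the days. The difference was 1.45 (SE 0.22, adjusted p = 1.02e-07), and this tile was also called without a variance trend (adjusted p = 0.0382). The tile with the highest mean of the gene, chr7:19014001-19016000, averaged 2.90 over all libraries and rose by 0.62 (SE 0.16, adjusted p = 0.00243). The start tile, chr7:19022001-19024000, rose by 0.98 (SE 0.33, adjusted p = 0.0451), or by 1.32 without day 0 replicate 2. Its call was lost on leaving out any of 8 of the 11 libraries, down to 0.59 (adjusted p = 0.434) without day 0 replicate 1.

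Foxa2, required for the node, notochord and definitive endoderm, read -1.35, -0.44 and -0.77 log2 RPKM at day 0, -0.20 and -0.52 at day 1, and -0.07, 0.39 and 0.09 at day 2. The day 2 libraries lay above all earlier ones, and day 1 overlapped day 0. The difference between day 2 and day 0 was 0.99 (SE 0.21, adjusted p = 0.00602), or 1.19 (adjusted p = 0.0018) without day 0 replicate 2. Over the annotated span alone it was 0.67 and was not called (adjusted p = 0.0845). Both tiles that rose lie in the flanks, outside the span: chr2:148040001-148042000 by 1.72 (SE 0.41, adjusted p = 0.0012) and chr2:148048001-148050000 by 1.19 (SE 0.38, adjusted p = 0.0301). The first call was lost without TET_WT day 2 replicate 2 (1.42, adjusted p = 0.0576). The second was lost without day 0 replicate 1 (0.97, adjusted p = 0.157), day 2 replicate 1 (1.15, adjusted p = 0.114) or day 2 replicate 3 (0.94, adjusted p = 0.285). The first tile is partly covered by the long noncoding gene 9030622O22Rik. Counts behind Foxa2 were low, with 32 to 513 reads per library over its 5 tiles.

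Foxa1, a close relative of Foxa2 that acts in lung, liver and gut, read 0.39, 0.26 and 0.34 log2 RPKM at day 0, 0.25 and 0.33 at day 1, and 0.86, 0.58 and 0.56 at day 2. Day 2 stood above both earlier days, which overlapped. Its difference of 0.34 (SE 0.11, adjusted p = 0.0453) was near the threshold. It was 0.30 (adjusted p = 0.0579) without day 0 replicate 2, and was not called in 17 of 21 alternative settings. Leaving out any 1 of the 11 libraries ended the call, with differences of 0.24 to 0.39, the lowest without day 2 replicate 1 (adjusted p = 0.206). None of its 7 tiles was called between day 2 and day 0. The start tile, chr12:57546001-57548000, which Ttc6 also overlaps, read 0.17, 0.02 and 0.08 at day 0, 0.15 and 0.19 at day 1, and 1.19, 0.52 and 0.73 at day 2. Day 2 lay above the earlier days, with a difference from day 0 of 0.72 (SE 0.30, adjusted p = 0.143).

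**Figure D2:**
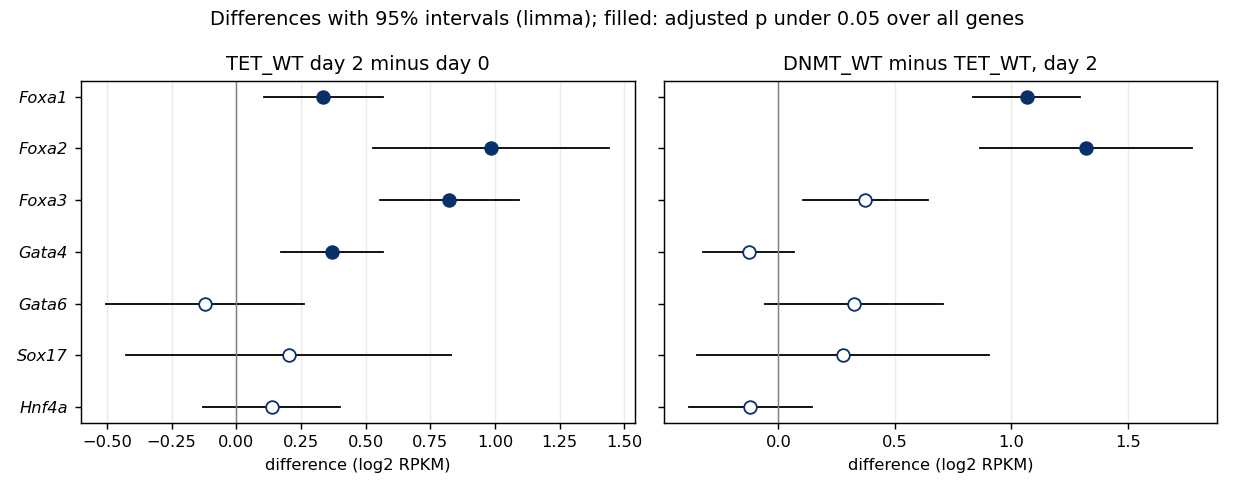
Differences of the 7 genes (horizontal axis, log2 RPKM, with 95% intervals from limma) between TET_WT day 2 and day 0 on the left and between DNMT_WT and TET_WT at day 2 on the right; filled points passed an adjusted p of 0.05 over all genes. Foxa1, Foxa2, Foxa3 and Gata4 are filled on the left, and Foxa1 and Foxa2 on the right.

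Gata4, a zinc finger factor of endoderm and heart, read 0.75, 0.76 and 0.74 log2 RPKM at day 0, 0.81 and 0.99 at day 1, and 1.06, 1.23 and 1.07 at day 2. The 3 groups did not overlap. The difference between day 2 and day 0 was 0.37 (SE 0.09, adjusted p = 0.0133), or 0.38 without day 0 replicate 2. It was not called without TET_WT day 2 replicate 2 (0.31, adjusted p = 0.0772) or after centring each library on its median (0.46, adjusted p = 0.218).

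Of the 39 Gata4 tiles, 9 rose and none fell between day 0 and day 2, with differences of -0.77 to 1.44 over all 39. The smallest p fell on chr14:63244001-63246000, which read 1.10, 1.49 and 1.01 at day 0, 1.34 and 1.91 at day 1, and 2.47, 2.13 and 2.08 at day 2. Day 2 lay above both earlier days there, by 1.03 over day 0 (SE 0.20, adjusted p = 3.27e-05). The strongest tile of the gene, chr14:63240001-63242000, averaged 2.89 over all libraries and rose by 0.64 (SE 0.16, adjusted p = 0.00173). At the right-hand end of the span, chr14:63268001-63270000 rose by 0.62 (SE 0.17, adjusted p = 0.00513), a call lost without day 2 replicate 3 (0.57, adjusted p = 0.056).

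Gata6, which directs the primitive endoderm, was not called. It read -0.41, -0.42 and -0.50 log2 RPKM at day 0, -0.17 and -0.88 at day 1, and -0.57, -0.53 and -0.60 at day 2. Depth enters the day 1 spread at chr18:11056001-11058000, which held 0 reads in both day 1 libraries, yet read -2.81 in replicate 2 and -4.72 in replicate 3. The source of the rest of the spread was not tested. The day 2 values lay just below those of day 0, and the difference was -0.12 (95% interval -0.50 to 0.26, adjusted p = 0.74). Its tile chr18:11080001-11082000, in the right-hand part of the span, fell by 1.14 (SE 0.37, adjusted p = 0.0312), or by 1.41 without day 0 replicate 2. That tile read 1.24, 0.17 and 0.76 at day 0, 1.15 and 1.02 at day 1, and -0.20, -0.80 and -0.24 at day 2. Its call was lost on leaving out any of 5 of the 11 libraries, with the smallest difference, -0.88 (adjusted p = 0.276), without day 0 replicate 1. Nor was this tile called after each library was centred on its median. The strongest Gata6 tile, chr18:11078001-11080000, lies beside it and averaged 1.59 over all libraries, with a difference of -0.19 (SE 0.23, adjusted p = 0.786).

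Sox17, an HMG-box factor of the definitive endoderm, was not called as a gene but rose in its strongest tile. The gene value read -0.57, -0.51 and -1.20 log2 RPKM at day 0, -0.70 and -1.33 at day 1, and -0.26, -1.20 and -0.21 at day 2. These groups overlapped, and the difference was 0.20 (95% interval -0.43 to 0.83, adjusted p = 0.736). The tile chr1:4496001-4498000, at the right-hand end of the span, read 0.33, 0.78 and -0.83 at day 0, 0.34 and 0.19 at day 1, and 1.65, 0.92 and 1.57 at day 2. All day 2 libraries stood above the earlier ones. The difference was 1.29 (SE 0.26, adjusted p = 0.000109), or 1.63 (adjusted p = 1.74e-06) without day 0 replicate 2. This was the tile of Sox17 with the highest mean, and none of the other 5 was called.

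**Figure D3:**
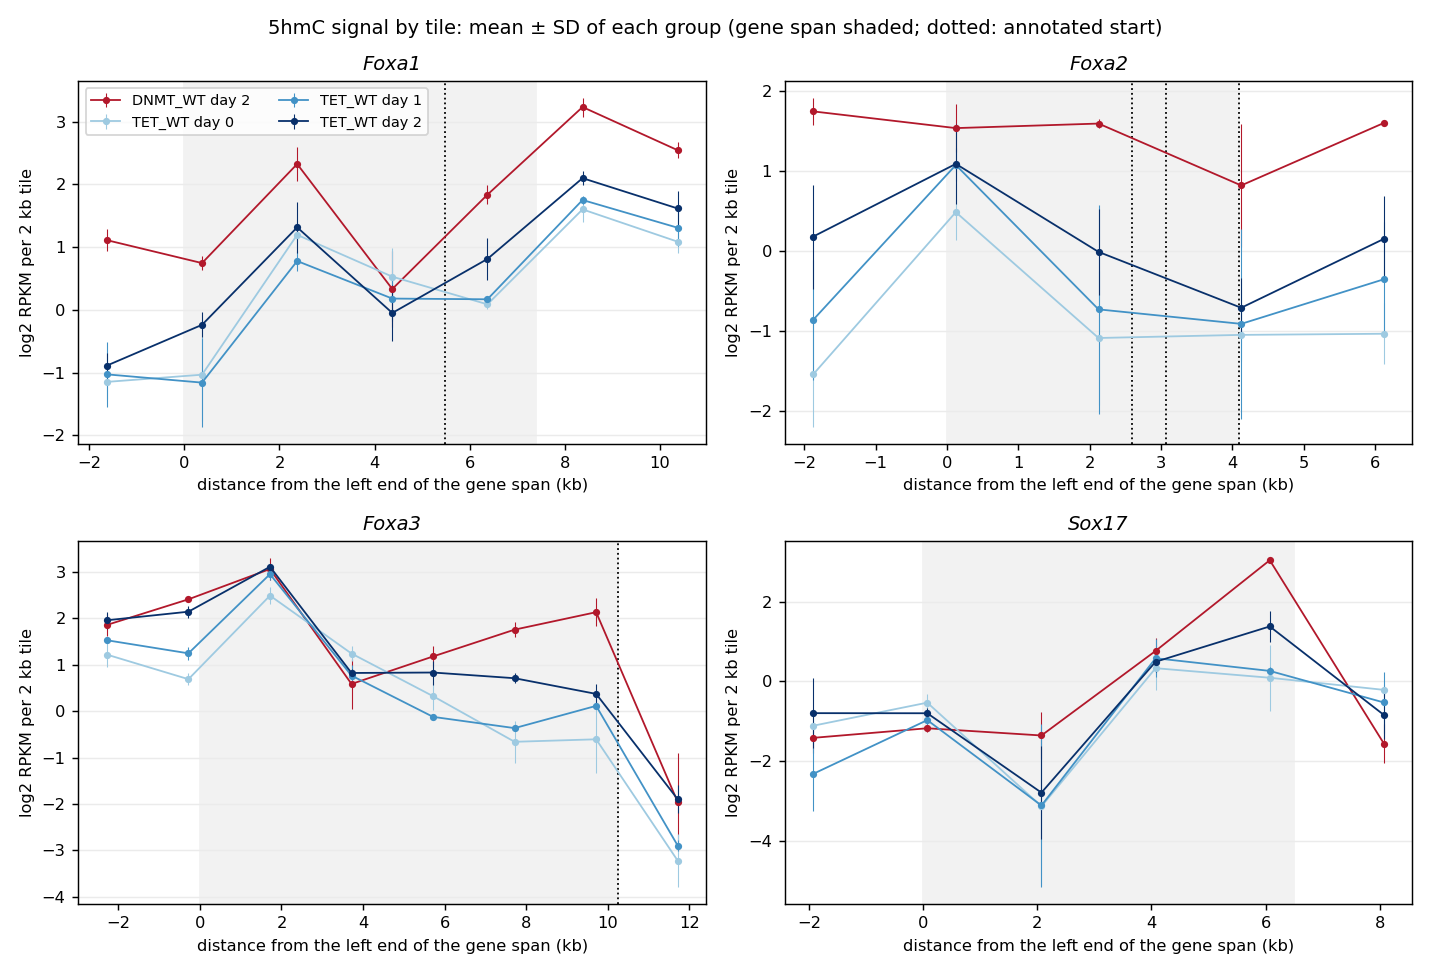
Signal per 2 kb tile (vertical axis, log2 RPKM, group mean and SD) against distance from the left end of the gene span (horizontal axis, kb) for Foxa1, Foxa2, Foxa3 and Sox17; the span is shaded and dotted lines mark annotated starts. DNMT_WT lies above TET_WT along most of Foxa1 and Foxa2, at the start of Foxa3, and in the Sox17 tile where DNMT_WT averaged 3.04 and TET_WT day 2 averaged 1.38.

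Hnf4a, whose upstream and downstream promoters are known as P2 and P1, had tiles that moved in opposite directions. The gene value read 0.60, 1.08 and 0.67 log2 RPKM at day 0, 0.77 and 0.67 at day 1, and 0.96, 0.95 and 0.86 at day 2. Day 0 replicate 2 lay above all the others, and the difference between day 2 and day 0 was 0.14 (95% interval -0.13 to 0.40, adjusted p = 0.538). Without that library it was 0.28 and was called (adjusted p = 0.0284).

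The tile of the upstream Hnf4a start, chr2:163506001-163508000, read 2.27, 2.35 and 2.74 in TET_WT cells at day 0, 1.25 and 1.52 at day 1, and 1.38, 1.43 and 1.73 at day 2. All day 0 libraries stood above all later ones. It fell by 0.94 (SE 0.23, adjusted p = 0.00153) at day 2 relative to day 0, or by 0.995 without day 0 replicate 2. The difference stayed negative in 17 alternative settings, from -1.048 to -0.798, and was called in 15. It was not called after centring each library on its median, where none of the member tiles was called lower. Beyond the next tile, chr2:163510001-163512000 read -0.95, -0.16 and 0.11 at day 0, 1.43 and 0.19 at day 1, and 1.38, 1.63 and 1.51 at day 2. That tile rose by 1.84 (SE 0.28, adjusted p = 8.88e-08), or by 1.93 without day 0 replicate 2. The tile of the downstream start, chr2:163546001-163548000, had the highest mean of the gene, 2.47, and a difference of -0.11 (SE 0.18, adjusted p = 0.839). In all, 3 Hnf4a tiles rose and 1 fell. The other 2 that rose lie farther into the span, chr2:163516001-163518000 by 0.92 (SE 0.19, adjusted p = 0.000125) and chr2:163538001-163540000 by 0.69 (SE 0.22, adjusted p = 0.0301). The last of these calls was lost on leaving out day 0 replicate 1 or 3 or day 2 replicate 1 or 2 (lowest 0.515, adjusted p = 0.249, without day 0 replicate 1). The long noncoding gene Hnf4aos overlaps 19 of the 36 tiles, among them all 4 that were called. Farther into the span 2 tiles held at most 2 reads in any library and were below the filter, so 34 tiles were tested.

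**Figure D4:**
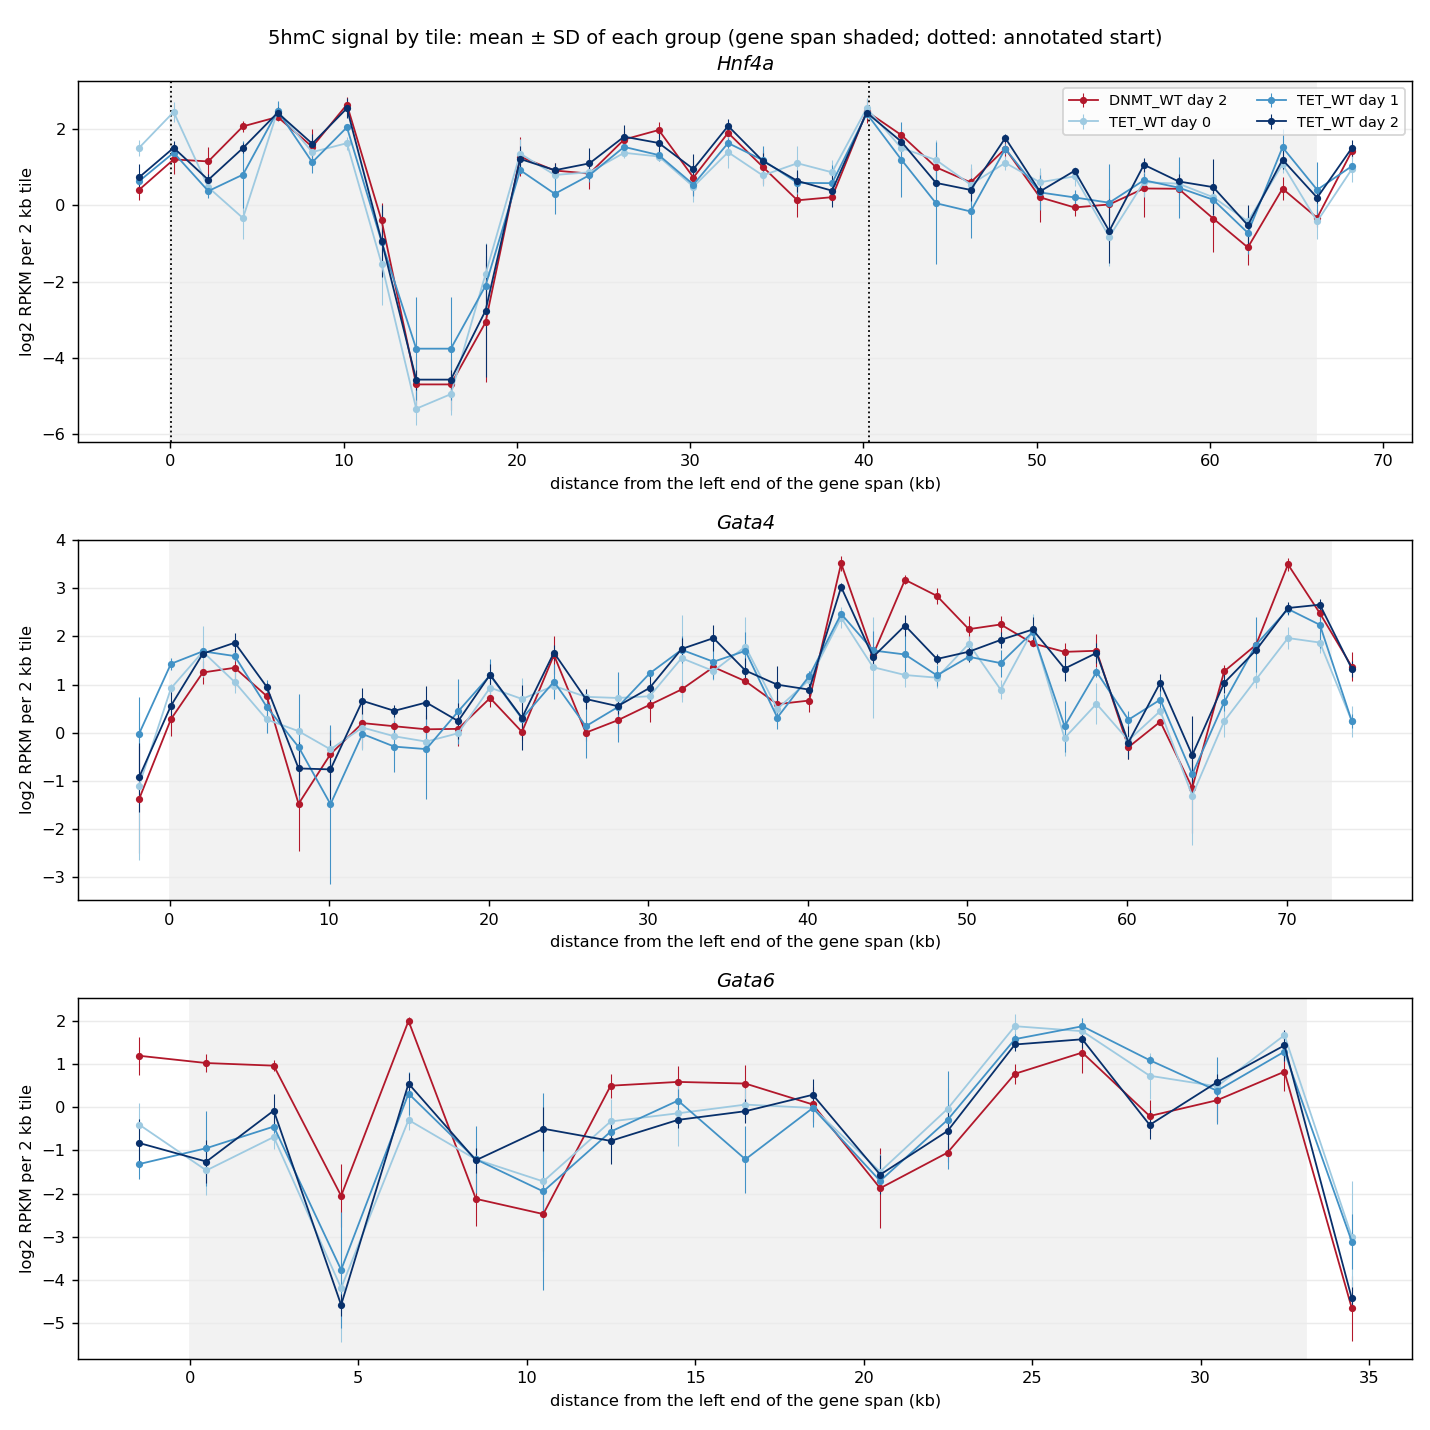
Signal per 2 kb tile (vertical axis, log2 RPKM, group mean and SD) against distance from the left end of the gene span (horizontal axis, kb) for Hnf4a, Gata4 and Gata6; the span is shaded and dotted lines mark annotated starts. At the upstream Hnf4a start the TET_WT day 0 mean of 2.46 lies above the other groups, at the downstream start all groups meet near 2.4 to 2.6, and in the left part of Gata6 the DNMT_WT line lies above TET_WT.

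Split by day, the 7 genes showed no called difference at day 1 relative to day 0, where 0% of all genes were called and 2551 had an unadjusted p under 0.05. The libraries of these days did not overlap at 1 of the 7 genes, Gata4, and at 22.1% of all genes. Without day 0 replicate 2, 1.35% of all genes were called, 1.05% higher and 0.294% lower. A count-based fit, limma voom on the recovered reads, called 188 genes, and taking the log2 of the mean RPKM over tiles called 380. None of the 7 was called in any of these. The gene differences at day 1 ran from -0.25 for Sox17 (SE 0.32) to 0.49 for Foxa2 (SE 0.24). Among single tiles, 1 rose and 1 fell of the 118, where 1.01% of all tiles were called, 0.601% higher and 0.409% lower. Both belonged to Hnf4a: the upstream start tile fell by 1.07 (SE 0.25, adjusted p = 0.0112) and chr2:163510001-163512000 rose by 1.14 (SE 0.32, adjusted p = 0.0435). The first call was lost without day 0 replicate 3 or day 1 replicate 2 (both -0.93, adjusted p = 0.0835 and 0.202). The second was lost on leaving out any of 8 libraries, down to 0.52 (adjusted p = 0.759) without day 1 replicate 2. Both calls were also lost after centring each library on its median.

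Between day 1 and day 2, Foxa3 rose by 0.60 (SE 0.14, adjusted p = 0.0154), where 9.59% of all genes were called, 8.99% higher and 0.599% lower. Day 2 and day 1 libraries did not overlap at 5 of the 7 genes, and at 50.3% of all genes. The Foxa3 call was lost in 6 of 21 alternative settings, including the count-based fit (0.45, adjusted p = 0.0679). It was also lost without day 1 replicate 2 (0.645, adjusted p = 0.0675), day 1 replicate 3 (0.56, adjusted p = 0.0846) or day 2 replicate 3 (0.57, adjusted p = 0.059). Foxa1 had a difference of 0.38 (SE 0.12, adjusted p = 0.0635) and was called without day 0 replicate 2 (adjusted p = 0.0362), which enters only through the shared spread. Of the 118 tiles 4 rose and 1 fell, where 2.96% of all tiles were called, 2.41% higher and 0.551% lower. The Sox17 tile chr1:4496001-4498000 rose by 1.12 (SE 0.30, adjusted p = 0.012), and the Foxa3 tile chr7:19012001-19014000 by 0.90 (SE 0.25, adjusted p = 0.0211). The Gata4 tile chr14:63254001-63256000 rose by 1.20 (SE 0.33, adjusted p = 0.0203), and the Gata6 tile chr18:11080001-11082000 fell by 1.497 (SE 0.41, adjusted p = 0.0167). The other Gata4 tile that rose, chr14:63272001-63274000, did so by 1.09 (SE 0.33, adjusted p = 0.0397). Each of these 5 calls was lost on leaving out any of 3 to 6 of the libraries. The Gata4 tile at 63254001 moved most, to 0.82 (adjusted p = 0.285) without day 1 replicate 3.

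At day 2 the lines differed most at Foxa1 and Foxa2, which were higher in DNMT_WT than in TET_WT cells by 1.07 and 1.32 log2 units. These 2 of the 7 genes were called, where 19% of all genes were, 14.9% higher and 4.07% lower, and the median difference over all genes was 0.10. The lines did not overlap at 4 of the 7 genes, and at 48.3% of all genes. Among tiles, 17 of the 118 were higher and 1 lower in DNMT_WT, where 3.24% of all tiles were called, 1% higher and 2.24% lower. The count of higher tiles was 5 for Foxa1, 4 for Foxa2, 3 each for Gata4 and Gata6, and 1 each for Foxa3 and Sox17, with none for Hnf4a. Without a variance trend 1 of these tiles was called, chr12:57538001-57540000 of Foxa1. The TET_WT day 2 libraries are those already compared with day 0, so the 2 comparisons are not independent. DNMT_WT cells had no earlier libraries here, so how its day 2 signal arose was not measured.

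Foxa1 read 1.84, 1.61 and 1.75 log2 RPKM in DNMT_WT replicates 1, 2 and 3, against 0.86, 0.58 and 0.56 in the TET_WT day 2 replicates. The lines did not overlap, and the difference was 1.07 (SE 0.11, adjusted p = 8.23e-05). Over the span plus 20 kb either side it was 0.28 (adjusted p = 0.217), the only one of 21 settings without a call. All 7 tiles were higher on average in DNMT_WT, by 0.38 to 2.00. The annotated start used here, 57546111, lies inside the span, which ends at 57548029 within the strongest tile, chr12:57548001-57550000. That tile averaged 2.21 over all libraries, lies almost wholly in the flank and is overlapped by Ttc6, as are 3 of the 7 tiles. It read 3.31, 3.06 and 3.33 in DNMT_WT and 1.97, 2.13 and 2.20 in TET_WT, a difference of 1.13 (SE 0.19, adjusted p = 4.18e-06). The start tile, whose 300-base window with 26 CG dinucleotides is printed above, was higher by 1.02 (SE 0.30, adjusted p = 0.0301). That call was lost without any 1 of the DNMT_WT libraries or without TET_WT day 2 replicate 2 or 3, with differences of 0.88 to 1.11.

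Foxa2 read 1.48, 1.23 and 1.66 in DNMT_WT, against -0.07, 0.39 and 0.09 in TET_WT day 2 libraries. The difference of 1.32 (SE 0.21, adjusted p = 0.00144) was called in all 21 alternative settings and ranged from 0.45 over the span plus 20 kb to 1.53. Across its 5 tiles DNMT_WT averaged between 0.81 and 1.74, whereas TET_WT ranged from -0.72 to 1.08. The tile chr2:148044001-148046000, which holds 2 of the 3 annotated starts, read 1.59, 1.53 and 1.65 in DNMT_WT and -0.01, 0.52 and -0.56 in TET_WT. That difference was 1.60 (SE 0.41, adjusted p = 0.00763). The tile of the start farthest upstream, chr2:148046001-148048000, was higher by 1.53 (SE 0.47, adjusted p = 0.0436). The first call was lost without DNMT_WT replicate 1 or 3 or TET_WT day 2 replicate 3 (lowest 1.33, adjusted p = 0.117). The second was lost without any 1 of these or of the other TET_WT day 2 libraries (lowest 1.13, adjusted p = 0.419).

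Foxa3 read 1.23, 1.38 and 1.53 in DNMT_WT, against 0.96, 0.99 and 1.07 in TET_WT. The lines did not overlap, yet the difference of 0.37 (SE 0.12, adjusted p = 0.0535) was not called, and 7 of 21 alternative settings called it. Among these were leaving out TET_WT day 0 replicate 2 (adjusted p = 0.0105) or 3 (adjusted p = 0.0373), which enter only through the shared spread. It lay mostly at the start: chr7:19022001-19024000 read 1.91, 2.01 and 2.48 in DNMT_WT and 0.61, 0.20 and 0.30 in TET_WT. That difference was 1.76 (SE 0.33, adjusted p = 6.33e-05). The tile at the left end, which rose most over the days, read 2.41, 2.44 and 2.37 in DNMT_WT and 2.00, 2.25 and 2.17 in TET_WT (difference 0.27, SE 0.22, adjusted p = 0.716).

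The GATA genes differed between the lines in stretches rather than over the whole gene. Gata4 read 0.99, 1.06 and 0.92 in DNMT_WT, against 1.06, 1.23 and 1.07 in TET_WT, and these overlapped (difference -0.13, SE 0.09, adjusted p = 0.371). Its sign turned to 0.11 in the count-based fit and to 0.085 with each library centred on its median, also without a call. Within Gata4, chr14:63246001-63248000 read 2.68, 3.02 and 2.83 in DNMT_WT and 1.51, 1.43 and 1.65 in TET_WT, a difference of 1.31 (SE 0.22, adjusted p = 4.81e-06). The adjoining chr14:63244001-63246000 was higher by 0.95 (SE 0.20, adjusted p = 0.000478), and chr14:63268001-63270000 by 0.91 (SE 0.17, adjusted p = 3.7e-05). One tile, chr14:63230001-63232000, was lower, with 1.05, 0.76 and 0.88 in DNMT_WT and 1.73, 1.97 and 1.53 in TET_WT. That difference was -0.84 (SE 0.25, adjusted p = 0.0361), a call lost on leaving out any of 5 libraries. It was called in 9 of 17 alternative settings, and neither median centring nor quantile normalization called it. In TET_WT day 0 replicate 2 that tile held 37 reads and in replicates 1 and 3 it held 210 and 157. The tile is named here because of that value, which enters the difference between the lines only through the shared spread. Day 0 replicate 2 was also low at the Gata4 tile chr14:63242001-63244000, with 29 reads against 199 and 143 in replicates 1 and 3. At chr14:63234001-63236000 it lay above both, at 2.47 against 1.28 and 1.62 log2 RPKM.

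Gata6 read -0.36, -0.05 and -0.32 in DNMT_WT, against -0.57, -0.53 and -0.60 in TET_WT. The lines did not overlap, and the difference was 0.32 (SE 0.18, adjusted p = 0.231), which the count-based fit called (0.31, adjusted p = 0.0322). All 3 higher tiles lay at or near the left end of the gene, the first of them in the flank outside the span. That tile, chr18:11050001-11052000, read 1.53, 1.34 and 0.68 in DNMT_WT and -1.43, -0.31 and -0.75 in TET_WT, a difference of 2.02 (SE 0.44, adjusted p = 0.000837). The next tile, chr18:11052001-11054000, was higher by 2.28 (SE 0.50, adjusted p = 0.00119) and chr18:11058001-11060000 by 1.45 (SE 0.31, adjusted p = 0.000796). The long noncoding gene Gata6os overlaps the first 2 of these. Over all 19 Gata6 tiles 9 had a positive difference, and the median was -0.22.

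Sox17 read 0.07, -0.49 and -0.42 in DNMT_WT, against -0.26, -1.20 and -0.21 in TET_WT, and the groups overlapped. The gene difference of 0.28 (SE 0.29, adjusted p = 0.572) was not called, and 1 of its tiles was. At chr1:4496001-4498000 DNMT_WT read 3.12, 3.01 and 3.01 and TET_WT read 1.65, 0.92 and 1.57, which is 1.66 higher in DNMT_WT (SE 0.26, adjusted p = 9.67e-07). Behind these values stood 309, 114 and 205 reads in DNMT_WT and 76, 33 and 70 in TET_WT. Where tiles were pooled by reads, which gives strong tiles more weight, the gene was called (0.94, adjusted p = 0.00115). Over the span plus 20 kb the difference was -0.53 (adjusted p = 0.0769), and it was -0.05 without TET_WT day 2 replicate 2.

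Hnf4a differed little between the lines, with 0.74, 0.92 and 0.74 in DNMT_WT and 0.96, 0.95 and 0.86 in TET_WT (difference -0.12, 95% interval -0.39 to 0.14, adjusted p = 0.552). Centring on the library median turned this to 0.092, without a call. None of its tiles was called. Its upstream start tile read 1.27, 1.57 and 0.79 in DNMT_WT, against 1.38, 1.43 and 1.73 in TET_WT day 2 libraries. These overlapped, and the difference was -0.31 (SE 0.23, adjusted p = 0.654). At the downstream start the difference was 0.03 (SE 0.18, adjusted p = 0.974). The smallest p of the gene fell on chr2:163558001-163560000, with -0.25, 0.17 and -0.09 in DNMT_WT and 0.83, 0.97 and 0.93 in TET_WT (difference -0.96, SE 0.33, adjusted p = 0.0913).

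Other endoderm genes were counted from lists. Of 15 signals and streak-stage factors that act before the endoderm forms, 9 rose and none fell in TET_WT cells at day 2 relative to day 0, with a median difference of 0.50 against 0.09 over all genes, of which 15.3% rose and 2.51% fell. Among them were Gsc, an organizer homeobox gene, by 0.67 (SE 0.12, adjusted p = 0.0019) and Bmp4, a ligand, by 0.67 (SE 0.13, adjusted p = 0.00268). Of 20 definitive endoderm and gut tube factors 8 rose and none fell (median 0.30). Elf3, an epithelial ETS factor, rose by 2.78 (SE 0.17, adjusted p = 1.79e-06) and Klf5, which is also a factor of naive ES cells, by 1.38 (SE 0.14, adjusted p = 5.62e-05). In the list of 20 primitive and extraembryonic endoderm genes 5 rose and 1 fell (median 0.12). Lamc1 rose by 0.63 (SE 0.09, adjusted p = 0.000308) and Lama1, which encodes another laminin chain, fell by 0.68 (SE 0.08, adjusted p = 0.000165). Among 20 genes listed as liver and gut genes, 5 rose and 1 fell (median 0.12), with Trh, a hormone precursor, higher by 1.77 (SE 0.21, adjusted p = 0.000123). Whether the endoderm factors activate each listed gene was not tested. Tat, a liver aminotransferase, fell by 0.43 (SE 0.09, adjusted p = 0.00591). Without TET_WT day 0 replicate 2, a setting chosen after seeing the data, 7 rose in the upstream list, 8 in the definitive endoderm list, 9 in the extraembryonic list with 3 that fell, and 5 in the liver and gut list with 1 that fell. Calls over all genes grew as well in that setting, to 22% higher and 9.56% lower, against 15.3% and 2.51% with the library.

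Other lineages were counted beside them. Of 20 mesoderm factors 8 rose (median 0.26), of 20 neural factors 6 (median 0.39), and of 16 fibroblast and feeder genes 2 (median 0.04), and none of these fell. Without day 0 replicate 2 the mesoderm list had 9 higher and 1 lower, the neural list 11 higher, and the fibroblast list 3 higher and 2 lower. The share that rose was thus of the same order in the mesoderm and neural lists as in the definitive endoderm list, and no list was tested against another. Between day 1 and day 2, 4 of the upstream list rose, 3 of the definitive endoderm list, and 3 of the liver and gut list, where 8.99% of all genes rose and 0.599% fell. In the extraembryonic list 5 rose and 1 fell, and 7, 5 and 1 rose in the mesoderm, neural and fibroblast lists. None was called at day 1 relative to day 0, and without day 0 replicate 2 the upstream and mesoderm lists had 1 that rose each, the definitive endoderm list 2, and the liver and gut list 1 that fell.

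Between the lines at day 2, 5 of the 15 upstream genes were higher in DNMT_WT and none lower (median difference 0.22), where 14.9% of all genes were higher and 4.07% lower. They were led by Gsc at 1.40 (SE 0.12, adjusted p = 3.8e-05) and Lhx1 at 1.31 (SE 0.15, adjusted p = 0.000178). Of the definitive endoderm list 8 of 20 were higher (median 0.23), among them Nkx2-1, a lung and thyroid factor, by 0.85 (SE 0.12, adjusted p = 0.000638) and Pdx1, a pancreas factor, by 0.89 (SE 0.15, adjusted p = 0.00168). In the extraembryonic list 2 were higher and 3 lower (median 0.04), and in the liver and gut list 2 were higher (median 0.06). The other lineages had 13 higher and 1 lower of 20 mesoderm factors (median 0.61) and 15 higher of 20 neural factors (median 0.91). Six3 was higher by 1.80 (SE 0.16, adjusted p = 4.91e-05) and Sox3 by 2.46 (SE 0.25, adjusted p = 8.43e-05). The fibroblast list had 2 higher and 2 lower of 16.

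Genes whose profile over the 11 libraries lay close to that of each member, after each gene's own mean was removed, are given as a description. Foxa1 lay close to Hoxa7, a homeobox gene, at a root mean square distance of 0.12 log2 units. Foxa2 was closest to En2 (0.13) and Ggn (0.20), and Foxa3 to Kcnh3 and Tsc22d4 (both 0.09). Gata4 was closest to Tbx5, a T-box gene, at 0.06 and to Zfp704 at 0.07. For Gata6 they were Pdia6 and Chst14 (both 0.09), for Sox17 Gpx7 (0.18) and Tmem11 (0.22), and Hnf4a lay close to Ralgps1 (0.07). Distances of Gata4, Gata6 and Hnf4a are small partly because these genes varied little themselves, by 0.15, 0.21 and 0.14 around their means.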

How the data were processed

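HMCP-seq libraries of TET_WT cells at day 0, day 1 and day 2 and of DNMT_WT cells at day 2 were used, 11 in all, grouped by their titles. Trim Galore 0.6.5, cutadapt 2.3, Bowtie2 2.4.1 and build GRCm38 are named in the submitters' processing notes. How reads were counted per tile is not given in the sources used here. The deposited values are log2 RPKM in 2 kb tiles, as computed by the authors. Within each library they were whole multiples of 1 read (100% within 0.1%), with empty tiles held at 0.9 reads, and the reads so recovered exceed the library size implied by RPKM 2.32 times in every library, for a reason not known.

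Tiles of chromosomes 1 to 19 and X were kept, without the lowest 10% and the highest 0.1% by mean (1183888 tiles). A gene value is the mean over tested tiles of the RefSeq span (GRCm38.p6) plus 2 kb either side, with at least 3 tiles. Tests were made in 1 limma fit of all libraries (version 3.58.1, R 4.3.3; moderated variances with a trend on the mean), with Benjamini-Hochberg adjustment over all genes or tiles of each of 4 comparisons, two-sided. The code was tested on simulated data. Alternatives changed the filter, scaling, variance model, gene extent or gene value, left out each library, or summed recovered reads for limma voom (the count-based fit).

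The 7 genes, the lists and the comparisons were chosen with earlier results of these data known. All 7 genes were named. Of their tiles, the one with the highest mean, those with an annotated start and the one with the smallest p in each comparison were named, and other called tiles were added after their values were seen. For profiles, the 2 genes closest to each member were eligible, and some are not reported here. Of each list, the 2 genes with the smallest p per direction among those called were eligible. Counts limit precision: member genes held from 30 to 4039 reads per library.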

Additional observations from a re-analysis of the deposited data

How the results depend on the processing

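In all 21 alternatives Foxa3 at day 2 against day 0 and Foxa2 in DNMT_WT against TET_WT kept their direction and their call, and no called gene reversed. The number of the 7 genes called at day 2 against day 0, 4, became 2 over the span alone or with median centring, and 2 to 4 with a library left out. At day 2 against day 1 it was 1, and became 2 with the log2 of the mean RPKM or quantile normalization and 0 with median centring, no variance trend or voom (0 to 2 with a library left out). In DNMT_WT against TET_WT it was 2, and became 5 with the log2 of the mean RPKM or voom (2 to 3 with a library left out). At day 1 against day 0 it was 0 throughout. Member tiles called numbered 22 at day 2 against day 0, 13 with median centring, all of them higher, and 1 with no variance trend (16 to 26 with a library left out). At day 2 against day 1 the 5 became 0 with median centring or no variance trend (1 to 6). At day 1 against day 0 the 2 became 0 with either of these and 1 with only the 2 groups compared or with the replicate block (0 to 3). In DNMT_WT against TET_WT the 18 became 1 with no variance trend and 28 with only the 2 groups compared (11 to 20). Median centring moved the median difference of all genes between the lines to 0.31, against 0.10.

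Values that changed sign were called neither in the main fit nor in the setting that reversed them. Between the lines, Gata6 and Sox17 were each called higher in DNMT_WT in 2 of the 21 alternatives. At day 1 against day 0 Foxa1 gave 0.007 with median centring, 0.015 with the replicate block and 0.382 with 20 kb either side, and Foxa3 gave -0.055 with 20 kb. Gata6 ranged from -0.434 to 0.28 with a library left out, Hnf4a from -0.159 to 0.081 and Sox17 from -0.566 to 0.059. Hnf4a also gave 0.013 with no tile filter and 0.032 with 20 kb, and Sox17 0.001 over the span alone. At day 2 against day 0 Gata6 gave 0.095 with 20 kb, Sox17 ranged from -0.017 to 0.525 with a library left out, and the downstream start tile of Hnf4a from -0.25 to 0.014. At day 2 against day 1 Gata6 gave 0.069 with quantile normalization, 0.138 with 20 kb and 0.017 with voom, and ranged from -0.402 to 0.312 with a library left out. Between the lines Gata4 gave 0.11 with the log2 of the mean RPKM, 0.085 with median centring and 0.11 with voom, and Hnf4a 0.092 with median centring. Gata6 gave -0.299 and Sox17 -0.526 with 20 kb, and Sox17 ranged from -0.047 to 0.449 with a library left out. The downstream start tile of Hnf4a gave -0.068 with quantile normalization and ranged from -0.131 to 0.183. The causes were not tested.

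Deviations of same-numbered libraries from their group means correlated at 0.029, 0.029 and -0.046 between day 2 and day 0. The values were -0.288 and -0.268 between day 1 and day 0, and 0.123 and 0.084 between day 2 and day 1. Between the lines they were 0.01, 0.068 and 0.015. Deviations within so small a group are tied to each other, and the labels do not say, so pairing by replicate number cannot be settled from these values. With the replicate block the called genes numbered 4, 0 and 1 at day 2 against day 0, day 1 against day 0 and day 2 against day 1, and 2 between the lines, as without it. Over all genes, calls at day 2 against day 0 numbered 3689, and ranged from 1263 with median centring to 6898 with voom, with 6543 without day 0 replicate 2. Depth limits single tiles, since the median tile held 2 reads in day 1 replicate 2.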
